A study of Mus musculus with 4 samples.

Results

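The 10 genes of plasma proteins that the liver makes were followed in the epithelium of the neonatal small intestine. They were Afp, Alb, Ttr, Trf, Serpina1a, Serpina1b, Serpina1c, Serpina1d, Fga and Lbp, 10 of the 32227 genes listed in the 4 count matrices, and the UMIs of the Serpina1 genes a to d were also summed. The set was chosen by name and by its measured levels, since several of these genes differ between regions in these same libraries, so their levels and fold changes are given as a description with no test. Ileum and jejunum were taken from the same 2 wild-type C57BL/6J mice at postnatal day 6, which gave 2 libraries per region and replicates 1 and 2 with the same mouse behind each number. No treatment, transgene or deletion was present, and the medial part of each region was used, cut into pieces of about 2 cm.

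Plasma proteins are secreted by hepatocytes under regulators such as HNF4 and C/EBP factors, which enterocytes also use. Alpha-fetoprotein (Afp) is the main fetal serum protein, albumin (Alb) its adult relative and neighbour on the chromosome, and the yolk sac and fetal gut are known to make the fetal protein too. Transthyretin (Ttr) carries thyroid hormone and retinol-binding protein, transferrin (Trf) carries iron, alpha-1-antitrypsin (the Serpina1 genes) inhibits neutrophil elastase, fibrinogen alpha chain (Fga) is a subunit of the clotting protein, and Lbp hands bacterial lipopolysaccharide to immune receptors.

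In all, 30521 of 36202 called cells passed the limits on genes and mitochondrial share. The median depth of kept cells was 10916 to 12047 UMIs in the ileal and 4689 to 5883 in the jejunal libraries, so shares of cells with a UMI are given at an equal 2000 UMIs per cell. Clusters gave 25481 enterocyte-like, 1608 stem/progenitor-like, 258 enteroendocrine-like, 54 immune-like and 21 goblet-like cells, and 3099 cells stayed unnamed. Replicate 1 is labelled male and batch 1 and replicate 2 female and batch 2, so mouse, labelled sex and batch cannot be told apart. Xist, the transcript of the silenced X chromosome, stood at 466 to 575 CPM in the libraries labelled male and at 0.706 to 0.907 in those labelled female, which goes against the labels in all 4 libraries and leaves the regions within a mouse together. With 2 mice, p-values rest on 2 libraries per region. The main edgeR fit did not use the pairing of the regions by mouse, and its estimate of spread drew on all genes.

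Defining hepatocyte genes were at or near 0. Of 24 hepatocyte markers, 5 to 8 had no UMI in the enterocyte-like cells of a library, and only Hal, an enzyme of histidine breakdown, exceeded 5 CPM, at 8.41 and 5.18 CPM in the ileum. Cyp7a1, Mup3, Mup20 and Serpina3k were at 0 in all 4 libraries, Cyp8b1, Cyp1a2, Itih1, Sds, Tdo2, Asgr2, Akr1c6 and Tat at 0 in at least 1, and the whole list summed to 5.52 to 12.2 CPM.

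Afp had the largest ratio of ileum to jejunum among the members in enterocyte-like cells. It reached 183.2 and 165.5 CPM in ileum replicates 1 and 2 and 4.67 and 2.18 CPM in jejunum replicates 1 and 2. Both ileal values lay far above both jejunal ones, 39.2 times in the first mouse and 76.1 times in the second. At equal depth 20.2% (95% exact binomial interval 19.2 to 21.2%) and 17.7% of ileal cells held an Afp UMI against 0.911% and 0.384% of jejunal cells. The UMIs were unevenly spread, with up to 74 and 102 in a single ileal cell and 15.6% and 17.8% of all Afp UMIs in the richest 1% of cells. An enterocyte-like cluster with Afp, Reg3g and Reg3b among its 10 leading genes had 581 and 470 ileal but 9 and 4 jejunal cells. The enterocyte-like cells of the regions were thus not matched by cluster. No Afp UMI was found at this depth in the immune-like cells, which should lack it, but these were only 10 to 18 cells per library, with a median depth of 3282 to 7761 UMIs against 5159 to 14372 in enterocyte-like cells. Unthinned, the immune-like cells held 0 to 3 Afp UMIs per library. In a fit over all genes the log2 difference between ileum and jejunum was 5.55 ± 0.37 (fitted value ± SE), and 4.64 with all kept cells summed. Here and below, the SE is the size of the fitted value over the square root of its F statistic. For Afp it was below 0.676, the SD of the log2 ratios of the 2 mice.

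Alb was almost absent. It had 15, 23, 21 and 22 UMIs in the enterocyte-like cells of ileum replicates 1 and 2 and jejunum replicates 1 and 2, or 0.189, 0.263, 0.405 and 0.557 CPM, and no such cell held more than 1. Ileal enterocyte-like cells thus had abundant Afp and hardly any Alb, while Alb, Afp and Afm follow each other on chromosome 5 in the RefSeq annotation of GRCm38.p6. Afm, afamin, the next gene after Afp, stood at 35.1 and 51.1 CPM in the ileum against 29.9 and 32.7 CPM in the jejunum, well above Alb in all 4 libraries (log2 difference 0.35 ± 0.24, edgeR adjusted p = 0.371). Gc, the vitamin D binding protein of the same family, was at 0.16 to 0.214 CPM.

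Fga was the second ileal gene. Its level was 35.3 and 23.4 CPM in the ileum against 5.58 and 0.734 CPM in the jejunum, so that the regions did not overlap but the jejunal libraries differed by more than the ileal ones. The fitted log2 difference was 3.09 ± 0.80, and without jejunum replicate 1 it was 5.17. Fgb, the beta chain and next gene on chromosome 3, had the same order, at 26.6 and 20.8 CPM in the ileum against 1.85 and 0.101 CPM in the jejunum. Fgg, the gamma chain needed for whole fibrinogen, was at 0.919 and 1.5 CPM in the ileum against 0.347 and 0.177 CPM in the jejunum. The alpha and beta chains were thus measured without a like amount of the gamma chain. Among 362 and 260 ileal cells with an Fga UMI at equal depth, 8.56% and 4.62% also held an Fgb UMI, against 4.82% and 3.14% of cells without one.

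Trf and Lbp were higher in the ileum by a smaller step. Trf stood at 40.8 and 23.6 CPM in the ileum against 10.8 and 7.14 CPM in the jejunum (log2 difference 1.72 ± 0.30). Lbp stood at 35.1 and 28.1 CPM against 11 and 8.2 CPM (1.60 ± 0.19). For both genes each ileal library exceeded each jejunal library. The ratio of ileum to jejunum was 3.77 and 3.31 in the 2 mice for Trf, and 3.18 and 3.42 for Lbp.

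Ttr was the most abundant member and the least regional. Its level was 565.2 and 637.3 CPM in the ileum against 463.7 and 457.9 CPM in the jejunum, the log2 difference 0.27 ± 0.15. With cells under 10% mitochondrial counts alone that difference was 0.07. At equal depth 47% and 54.2% of ileal and 44.8% and 40% of jejunal enterocyte-like cells held a Ttr UMI, against 20%, 10%, 5.56% and 0% of the few immune-like cells.

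**Figure D1:**
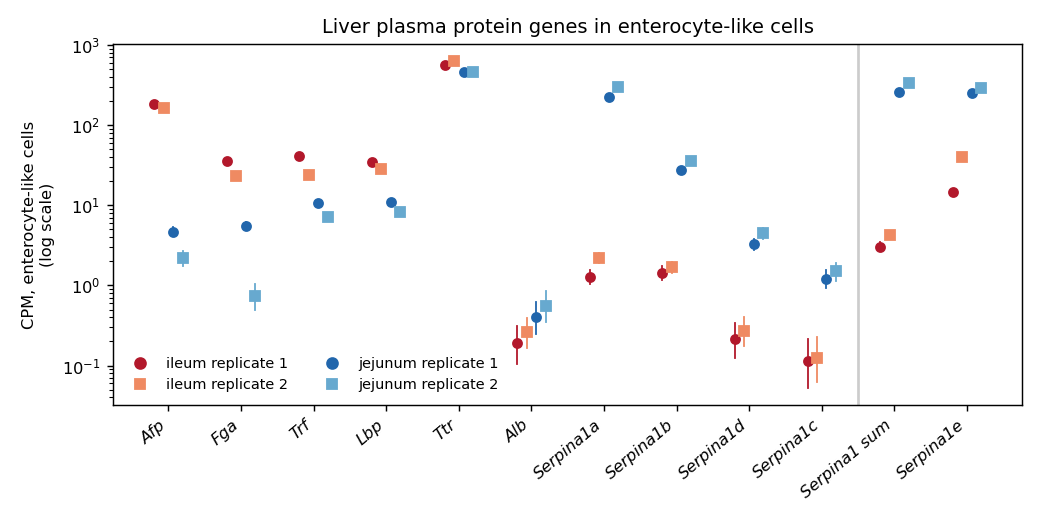
CPM of each gene in enterocyte-like cells (log axis), a point per library with its 95% Poisson interval, ileum in red and orange, jejunum in blues. Afp, Fga, Trf and Lbp lie higher in the ileum and the Serpina1 genes higher in the jejunum, Ttr is close to level, and Alb lies under 1 CPM in every library; the Serpina1 sum and Serpina1e, right of the line, are shown for comparison.

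The Serpina1 genes were the jejunal members. Serpina1a stood at 1.27 and 2.21 CPM in the ileum against 225.9 and 298.1 CPM in the jejunum, Serpina1b at 1.44 and 1.68 against 27.7 and 35.3 CPM. Serpina1d reached 3.24 and 4.48 CPM in the jejunum and Serpina1c 1.22 and 1.49 CPM, each over 10 times its ileal level in both mice. Those ileal levels rest on few counts, 17 and 24 UMIs of Serpina1d and 9 and 11 of Serpina1c. Summed, the a to d genes were 85.1 and 79.1 times higher in the jejunum than in the ileum of the same mouse, at 3.03 and 4.29 against 258.1 and 339.3 CPM, and 41% and 48.8% of jejunal cells held a UMI at equal depth against 0.807% and 0.966% of ileal cells. The fitted log2 differences were -7.34 ± 0.40 for Serpina1a, -4.45 ± 0.24 for Serpina1b, -4.09 ± 0.35 for Serpina1d and -3.59 ± 0.34 for Serpina1c. With all kept cells summed they were -6.15, -3.62, -3.44 and -1.89.

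Serpina1e, a copy outside the set, was as abundant as Serpina1a in the jejunum, at 252.5 and 290.6 CPM, and kept 14.9 and 40.2 CPM in the ileum (log2 difference -3.40 ± 0.51, edgeR adjusted p = 0.0262). It therefore made up 49.4% and 46.1% of the UMIs of the 5 copies in jejunal enterocyte-like cells but 83.1% and 90.4% in ileal ones, where Serpina1a fell to 7.1% and 4.97%. Adding Serpina1e to the sum took the mean log2 difference of the 2 mice from -6.36 to -4.33. A part of the transcript ends is shared between copies. Of 411 windows of 90 bases in the last 500 bases of the longest GENCODE vM21 transcript, 43 of Serpina1a, 15 of Serpina1b, 59 of Serpina1c, 31 of Serpina1d and 0 of Serpina1e occur letter for letter in another copy. Most windows of each copy thus occur in no other copy. How the authors' counting treated reads from shared stretches is not given in the sources used here, so the values of Serpina1a to Serpina1d taken singly are uncertain.

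All 10 members passed the filter on low counts in enterocyte-like cells and none had overlapping regions. The 5 that were higher in every ileal library (Afp, Fga, Lbp, Trf and Ttr) stand beside a background in which 38.0% of 19487 tested genes did the same, and the 5 that were lower (Alb and the 4 Serpina1 genes) beside 24.1%. The contrast was used to choose the members, so these counts say nothing more about them.

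Promoters are shown for the pair of neighbours with unlike levels, Afp and Alb, and for the 2 most abundant Serpina1 copies in the jejunum, Serpina1a and Serpina1e, of which the second kept a higher level in the ileum. RefSeq promoters (GRCm38.p6) were matched for 7 of the 10 members, not for Trf, Ttr or Lbp. The 120 bases before the start are given 5′ to 3′ on the gene's strand, at chr5:90490594-90490713 for Afp and chr5:90460750-90460869 for Alb (plus strand), and at chr12:103863620-103863739 for Serpina1a and chr12:103956898-103957017 for Serpina1e (minus strand).
Afp: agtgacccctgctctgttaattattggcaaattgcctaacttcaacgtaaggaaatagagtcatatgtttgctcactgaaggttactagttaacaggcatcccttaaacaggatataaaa
Alb: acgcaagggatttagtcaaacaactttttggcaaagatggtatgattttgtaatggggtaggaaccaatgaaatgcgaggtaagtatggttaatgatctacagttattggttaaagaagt
Serpina1a: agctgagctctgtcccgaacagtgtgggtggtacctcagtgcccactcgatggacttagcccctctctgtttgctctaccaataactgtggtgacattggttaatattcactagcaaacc
Serpina1e: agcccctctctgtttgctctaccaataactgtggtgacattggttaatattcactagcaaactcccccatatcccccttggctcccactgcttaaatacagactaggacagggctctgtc

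Laid side by side without gaps, at the shift with the most identical bases and an overlap of at least 60, Serpina1a and Serpina1e had 62 of 63 bases alike, with Serpina1a shifted by 57 bases. Serpina1b and Serpina1e had 68 of 68 alike, and Serpina1a and Serpina1b 111 of 115. Afp and Alb had 41 of 116 alike. These counts describe the sequences, and binding to them was not measured.

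The members were then followed in the other cell classes. Of 9 genes that mark enterocytes (Fabp2, Alpi, Lct, Anpep, Cubn, Amn, Dab2, Cdhr5 and Slc5a1), the stem/progenitor-like cells held a median of 9.87 to 15.9% of the enterocyte-like level. The part of free RNA or mixed cells in the members' values was not tested, and this range is given beside them. Ttr, at 58.4 to 85.3 CPM in stem/progenitor-like cells, stood at 12.8 to 14.3% of its enterocyte-like level, and ileal Afp, at 25.5 and 14.1 CPM, at 13.9% and 8.51%, close to or under the range of medians. Trf (5.78 to 11.1 CPM) was at 27.2 to 80.9%, within the spread of the single genes only in ileum replicate 1. Lbp (4.27 to 9.3 CPM) was at 15.2 to 113.5%, within that spread in both ileal libraries.

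The Serpina1 sum in stem/progenitor-like cells was 46.3 and 31.6 CPM in the ileum against 41.4 and 37.5 CPM in the jejunum, so the regional gap of the enterocytes was not seen there. In the ileum the sum was at 1525% and 735.8% of the level in enterocyte-like cells of the same library. In the jejunum it was at 16% and 11.1%, where the medians of the 9 enterocyte genes were 9.955% and 9.873%. The part of free RNA or mixed cells in the jejunal values was not tested, so the likeness of the regions may compare unlike sources. Serpina1a was at 25.5 and 17.1 CPM in the ileum against 33 and 32.7 CPM in the jejunum. Serpina1b ran the other way from enterocytes, at 18.1 and 12.8 CPM in the ileum against 7.99 and 3.53 CPM in the jejunum. Serpina1e kept the enterocyte order at 3.33 and 5.55 against 28 and 32.1 CPM (log2 difference -2.82 ± 0.31, edgeR adjusted p = 0.00115). It stood at 22.4% and 13.8% of its enterocyte-like level in the ileum and at 11.1% and 11% in the jejunum. Except in ileum replicate 1, these shares were close to the medians of the 9 enterocyte genes. The part of free RNA or mixed cells in this order was not tested. Secretory markers were higher in the ileal libraries of this class, Chgb at 33.7 and 17.1 CPM against 5.08 and 2.89 and Tff3 at 149.5 and 71.3 against 40.7 and 54.9. Without the 147 to 210 cells per library that held a UMI of such a marker, the sum was 32.1 and 29 CPM in the ileum against 33 and 38.5 CPM in the jejunum, and Serpina1b 12.7 and 13.8 against 4.72 and 3.3 CPM.

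Enteroendocrine-like cells, the hormone cells of the gut, had the highest Afp and Serpina1 levels of the named classes with more than 21 cells. Afp was at 432.7 and 662.5 CPM in the ileum against 585.8 and 844.5 CPM in the jejunum. The jejunal values were thus as high as the ileal ones, from 134 and 205 UMIs, whereas jejunal enterocyte-like cells had 4.67 and 2.18 CPM. The Serpina1 sum was at 439.1 and 733.8 CPM in the ileum against 616.4 and 531.4 CPM in the jejunum, again in both regions, with ileal enterocyte-like cells at 3.03 and 4.29 CPM. Ttr (176.3 to 245.8 CPM) was at 31.2 to 45.9% of its enterocyte-like level. The medians of the enterocyte marker genes were at 11.7 to 35.1%, and the highest single genes at 29.6 to 209%. Alb had 4 UMIs in all, 3 of them in jejunum replicate 1. The class has 46 to 74 cells per library, so a few cells weigh heavily.

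**Figure D2:**
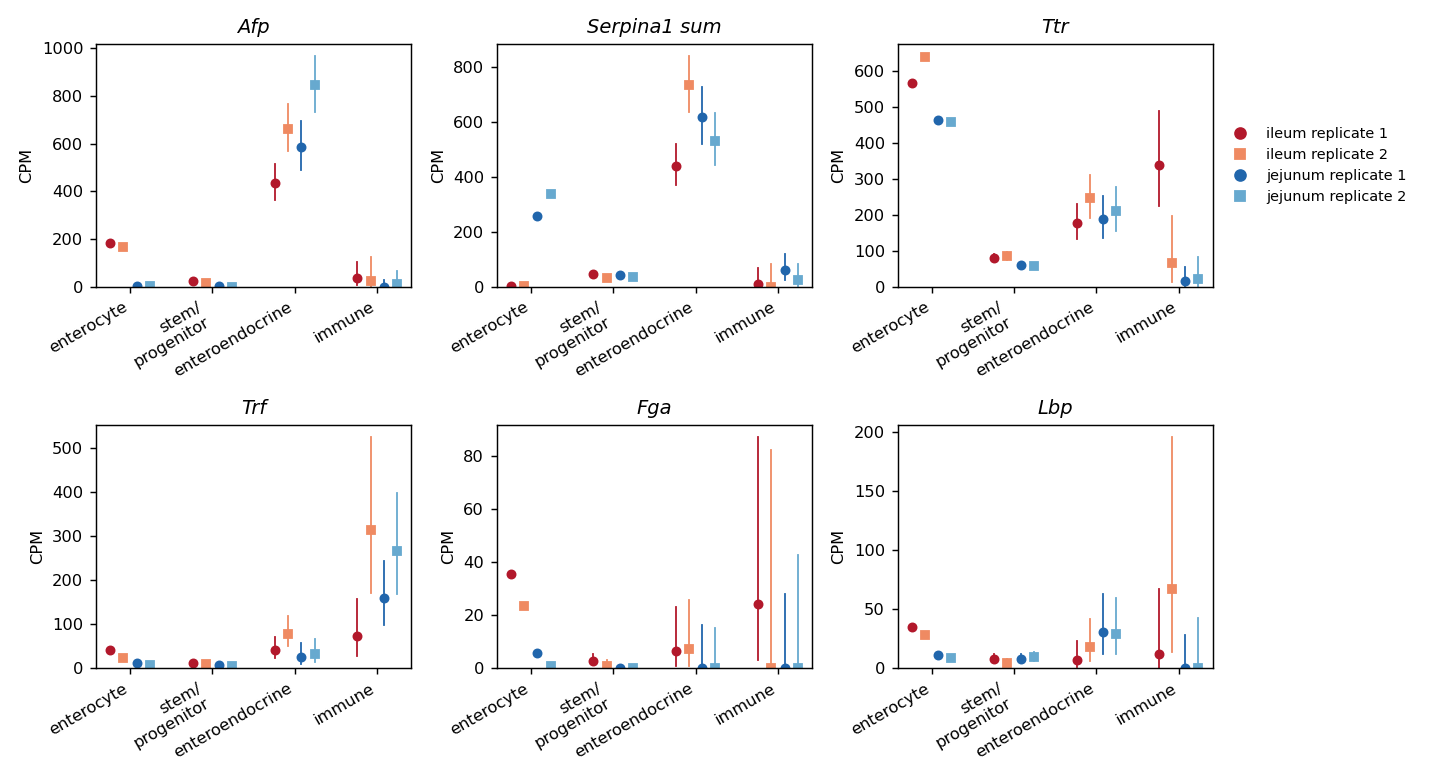
CPM (linear axes from 0) of 6 genes by cell class, a point per library with its 95% Poisson interval, ileum in red and orange, jejunum in blues. Afp and the Serpina1 sum lie apart by region in enterocyte-like cells and are high in enteroendocrine-like cells of all 4 libraries, and Trf is highest in immune-like cells among the 4 classes drawn, with wide intervals.

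Within the enteroendocrine-like class Afp sat in part of the cells. Of 258 cells, 116 held an Afp UMI and 43 held 5 or more, and the 5 richest cells had 31.1 and 41.4% of the Afp UMIs in the ileum against 59 and 87.8% in the jejunum. The 43 cells were set beside the other 215, a split made after the values were seen and given with no test. Their median depth was 2787 to 6112 UMIs against 3208 to 4783. They were richer in all 4 libraries in Chga and Chgb, granule proteins of hormone cells (means 8278 and 14046 CPM against 3544 and 8124), in Tph1, the enzyme that starts serotonin synthesis (1379 against 631.1 CPM), in Tac1, the substance P precursor (1716 against 521.3), and in Trpa1, an irritant channel (232 against 37). The 43 cells held 0 UMIs of Sst, Gip, Isl1 and Neurog3, against 1516, 96, 146 and 171 in the 215 others. Gcg and Pyy had 2 and 5 UMIs against 1475 and 1575, or means of 9.53 and 22.8 CPM against 1674 and 1729. Sct and Cck stayed present in the 43 cells, at means of 743 and 261.8 CPM against 2193 and 1562. In ileum replicate 2 alone both were higher in the 43 cells. Serpina1a did not follow Afp, at a mean of 311.6 CPM in the 43 cells and 366.6 CPM in the others.

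**Figure D3:**
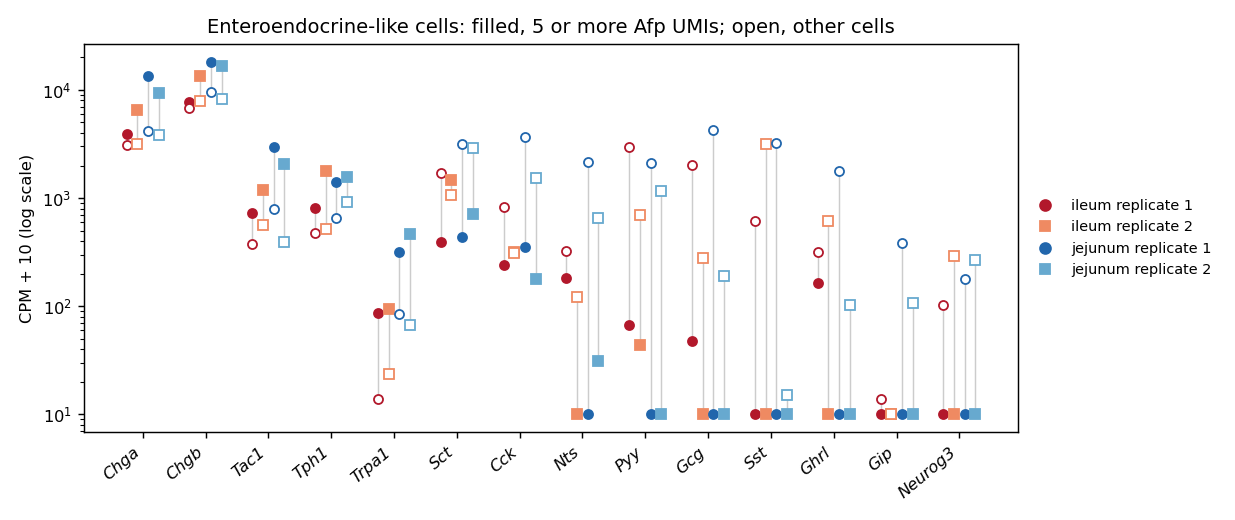
CPM plus 10 (log axis) of hormone-cell genes in enteroendocrine-like cells with 5 or more Afp UMIs (filled) and the others (open), by library. Chga, Chgb, Tac1, Tph1 and Trpa1 are higher in the filled points of all 4 libraries, and Gcg, Pyy, Sst, Ghrl, Nts and Neurog3 lower. Sct and Cck are lower in the filled points except in ileum replicate 2.

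The Serpina1 copies also took other shares in this class. Serpina1a held 48.5 to 52.1% of the UMIs of the 5 copies in every library, Serpina1c, nearly silent in enterocytes, 9.2 to 12.8%, and Serpina1e 12.3 to 25.9%. Serpina1c stood at 67.3, 106.9, 74.3 and 65.9 CPM, against at most 1.49 CPM in enterocyte-like cells. In the 21 goblet-like cells Serpina1b gave 30 of the 55 UMIs of the a to d genes, too few cells for more than their mention.

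**Figure D4:**
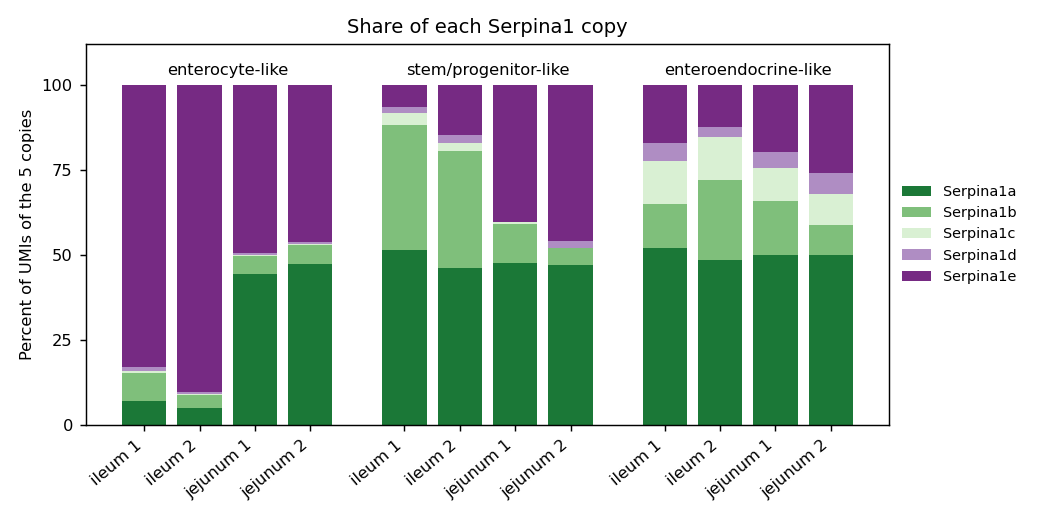
Percent of the UMIs of the 5 Serpina1 copies taken by each, stacked to 100, by library within 3 cell classes. Serpina1e fills most of the bar in ileal enterocyte-like cells, shares it with Serpina1a in jejunal ones, and takes 12.3 to 25.9% in enteroendocrine-like cells.

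Trf was higher in the immune-like than in the enterocyte-like cells of every library, at 72.5 and 313 CPM in the ileum against 159.5 and 265.5 CPM in the jejunum, from 6 to 23 UMIs. The unnamed cells of the ileum held 163.6 and 84.2 CPM of Trf, 711 of 734 and 376 of 392 UMIs lying in a cluster of 1478 cells led by Nt5e, Trf and Sprr2a2, where Trf was at 433.5 and 281.7 CPM in the ileum against 24 and 23.9 CPM in the jejunum. Nt5e, an enzyme known from the villus tip, was at 136.6 and 69.7 CPM in the ileal cells of that cluster but at 7.21 and 11.9 CPM in the jejunal ones. Other genes of the tip list were mixed in its jejunal cells. Slc28a2 (152.2 and 126.6 CPM) and Creb3l3 (435.9 and 471.6 CPM) lay below every enterocyte-like cluster with at least 100 cells, and Klf4 above most. The median depth of the cluster was 0.431 of that of its libraries, and its villus position was not tested. This cluster had the highest Serpina1 sum of the clusters with at least 100 cells in both jejunal libraries, at 627.4 and 845.3 CPM. Its Fga and Lbp were low, at 3 and 6 and at 4.9 and 2.2 CPM in the ileum.

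The members also differed along the ribosomal share of UMIs, known to be high in young epithelial cells near the crypt. Enterocyte-like cells thinned to 2000 UMIs were put into 5 equal groups per library, with mean ribosomal shares from 7.25 and 6.97% down to 1.98 and 1.40% in the ileum and from 5.22 and 5.16% down to 1.46 and 1.54% in the jejunum. From the highest to the lowest group, ileal Trf went from 9.88 to 91 and from 7.1 to 44.4 CPM (51.5 in the fourth group), and the jejunal Serpina1 sum from 132.6 to 360.5 and from 146.2 to 537.3 CPM. Ileal Fga went from 39.1 to 18.1 and from 25.2 to 8.52 CPM, and Lbp from 44.4 to 18.1 and from 36.9 to 10.3 CPM. Ileal Afp went from 97.9 to 235.2 and from 103.3 to 143.5 CPM, and Ttr from 240.3 to 552.3 and from 303.6 to 507.8 CPM, with the highest Ttr, 672.6 and 753.9 CPM, in the fourth group. Median depth also differed between these groups before thinning. Among enterocyte-like clusters of at least 100 cells, the same cluster had the lowest ribosomal share in every library. Its share was 1.74% (ileum replicate 1), 1.45% (ileum replicate 2), 1.14% (jejunum replicate 1) and 1.23% (jejunum replicate 2). It held 528, 1033, 514 and 207 cells in that order, with Kcnq1ot1, Airn and Mir99ahg among its 10 leading genes. Its part in the lowest group was not tested, nor was the age of the cells. Ordered instead by 7 villus tip genes, which are sparse at this depth, the ends of the order lay closer together for all 6. The ends differed by 0.76 on the log2 scale for ileal Trf and by -0.35 for the jejunal Serpina1 sum, the latter opposite to its change with the ribosomal share.

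**Figure D5:**
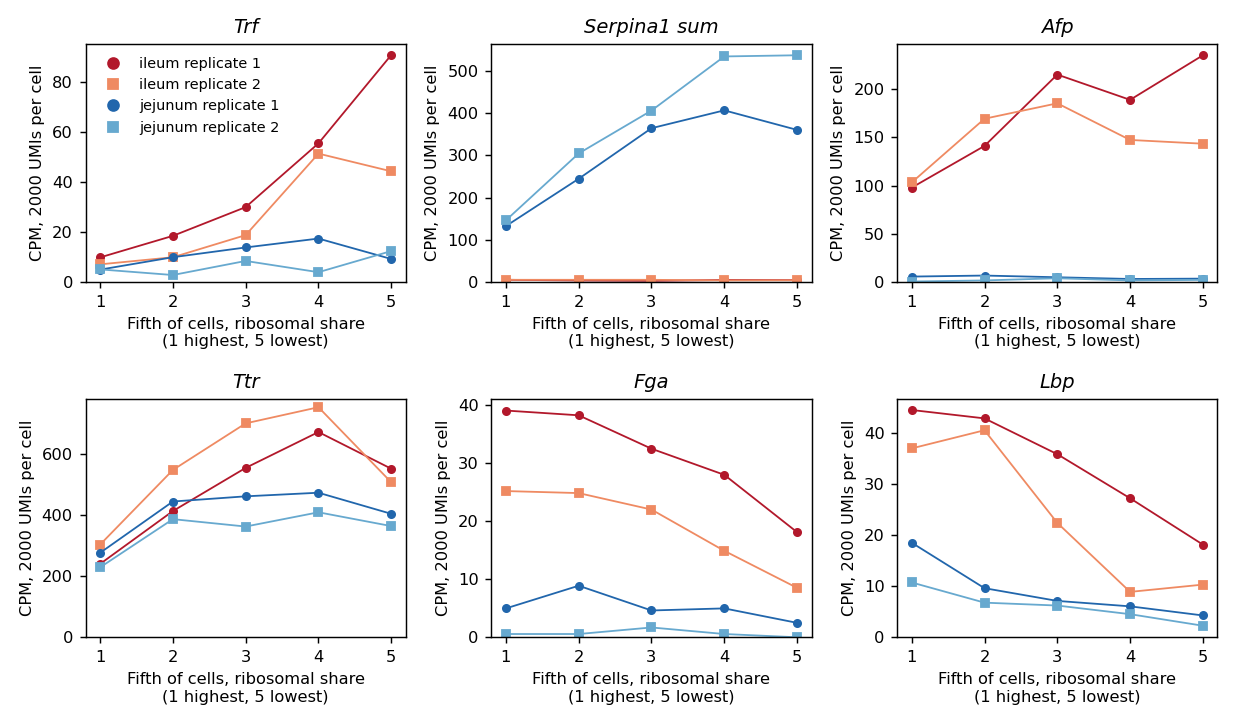
CPM after thinning to 2000 UMIs per cell in 5 equal groups of enterocyte-like cells from the highest (1) to the lowest (5) ribosomal share, a line per library. Trf, Afp and Ttr in the ileum and the Serpina1 sum in the jejunum end above where they began, some after a peak in group 3 or 4, and Fga and Lbp in the ileum end lower.

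The genes most like each member were taken over 52 sums per enterocyte-like cluster and library, which share libraries and depth, so the correlations mostly follow the regions. Afp was followed by Acox2, Aldh7a1, Hcls1, B4galt1 and Vopp1 (Pearson's r of log2 CPM 0.95 to 0.958), and Fga by Fgb (0.948), Gng11, Thbs1, Dhcr7 and Cyp51, the last of which make cholesterol. Serpina1a was followed by Cd36 and Gpt (both 0.981), Mfsd2a, Ptafr and Aqp8, and Serpina1b by Cd36 (0.978), Trac, Aqp8, Gpt and Tubb2a. Trf came with Gm11992, Cd68, Dnm3, Slc7a15 and Emp2 (0.889 to 0.903), Lbp with Gpc3, Npm1, Nsdhl, Commd10 and Ruvbl1 (0.872 to 0.9), and Ttr with Sh3glb1, Mcoln3, Grtp1, Slc46a3 and Atp6v0e (0.897 to 0.912).

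Other plasma protein genes of the liver were mostly low. Of 61, 11 exceeded 5 CPM in a library and 39 could be tested, of which 3 were called higher and 3 lower in the ileum (edgeR adjusted p under 0.05), beside 4.21% and 3.03% of all 19487 genes. With the mouse as a block 6 and 3 were called, beside 8.85% and 6.92% of all genes. Those called with at least 20 CPM were Fgb (log2 difference 4.44 ± 0.91, adjusted p = 0.0477) and Serpina1e. Kng1 and Rbp4 (higher) and F11 and Itih3 (lower), below that level, were the other 4. The median log2 difference of the list was -0.10, and -0.01 over all genes. F10 and Proz, of the clotting cascade, and Igfals, a carrier of insulin-like growth factors, were above 20 CPM in all 4 libraries and not called, which was noted after their values were seen.

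Apolipoproteins and lipid transfer genes, the plasma proteins that enterocytes are known to secrete, were more often called lower than higher in the ileum. Of 16 tested, 0 were called higher and 7 lower by edgeR, beside the same 4.21% and 3.03% of all genes, and 9 were lower with the block (6.92% of all genes). The list had a median log2 difference of -1.26. Apoc2, the activator of lipoprotein lipase, changed most among the abundant ones, at 685.5 and 822.7 CPM in the ileum against 4783 and 6204 CPM in the jejunum (-2.98 ± 0.24, adjusted p = 0.0139). Mttp, Apoa4, Apoc3 and Apoa1 were also lower (-1.68, -1.64, -1.54 and -0.94, adjusted p = 0.0339, 0.0176, 0.028 and 0.0339 by the same test). Apoc4 and Clu, the other 2 called, were below 20 CPM.

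Of 31 tested regulators of liver and endoderm, 2 were called higher and 3 lower in the ileum, beside 4.21% and 3.03% of all genes. Foxa1 and Nr5a2, activators of liver and gut genes, were higher (log2 difference 1.06 ± 0.14 and 0.88 ± 0.18, adjusted p = 0.0243 and 0.0468). Onecut2, Nr0b2 and Gata4 were lower (-5.87 ± 0.87, -2.89 ± 0.41 and -1.48 ± 0.27, adjusted p = 0.0256, 0.0248 and 0.0373), and Onecut2 differed between the jejunal libraries, at 14.8 and 74.1 CPM. With the block 3 and 6 were called, beside 8.85% and 6.92%. Hnf4a and Cebpa were measured in all 4 libraries, at 256.9 to 319.8 and 162.1 to 177.9 CPM, and were not called. Zhx2 and Zbtb20, known to shut down Afp in the liver after birth, were at 10.3 to 14.7 and 185.1 to 364.8 CPM and not called either (adjusted p = 0.314 and 0.212, edgeR). These 4 were singled out after their values were seen.

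Of 23 tested receptors and partners of the member proteins, 6 were called higher and 3 lower in the ileum, beside 4.21% and 3.03% of all genes (7 and 5 with the block, beside 8.85% and 6.92%). Like the other lists, this one was chosen with earlier results of these data known, so its counts are a description only. Tfrc, the transferrin receptor, and Slc11a2, an iron importer, were higher (0.97 ± 0.20 and 0.69 ± 0.14, adjusted p = 0.0482 and 0.0464), at 31.6 and 21.3 against 12.5 and 12.4 CPM for Tfrc. Tfr2 and Steap3, a second transferrin receptor and an iron reductase, were not called (-0.01 and -0.17, adjusted p = 0.988 and 0.754), and Tfrc was at -0.45 in stem/progenitor-like cells (adjusted p = 0.192, edgeR). Tlr4 and Tlr2, receptors that act with Lbp, were the other 2 called higher (2.22 and 2.11, adjusted p = 0.0444 and 0.0485) at low levels. The endocytic receptor Lrp2 and the adaptor Dab2 were higher too (3.19 ± 0.62 and 0.88 ± 0.17, adjusted p = 0.0436 and 0.0439). Fcgrt, the neonatal Fc receptor, which binds albumin, was lower in the ileum (-2.09 ± 0.17, adjusted p = 0.0139), as were Rbp2, a retinol carrier of enterocytes (-2.32 ± 0.18, adjusted p = 0.0139), and Slc16a10, a carrier of thyroid hormone (-0.82 ± 0.14, adjusted p = 0.0331). Of the 9 hepatocyte markers that could be tested Hal alone was called (2.60 ± 0.33, adjusted p = 0.0218).

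In stem/progenitor-like cells 1.59% of 12355 tested genes were called higher and 1.04% lower in the ileum. The lists of plasma protein, apolipoprotein, regulator, receptor and hepatocyte genes had 14, 9, 30, 17 and 1 genes tested there. Of these, 5 were called higher and 8 lower by edgeR. Lower were Onecut2 (-5.17 ± 0.48, adjusted p = 4.57e-04), Gata4 (-2.10 ± 0.21), Apoc2 (-2.63 ± 0.19) and Apoa4 (-1.29 ± 0.12), among others. Dab2 (1.68 ± 0.20) and Cubn (1.62 ± 0.29) were among those higher. Both are among the 9 enterocyte genes above, whose median in this class was 15.9 and 13.8% of the enterocyte-like level in the ileum. In the jejunum it was 9.96 and 9.87%. The part of free RNA or mixed cells in these calls was not tested. Of the members 6 passed the low-count filter of that fit, with log2 differences of 4.72 for Afp, 1.39 for Serpina1b, 0.60 for Trf, 0.44 for Ttr, -0.53 for Lbp and -0.67 for Serpina1a. Alb, Fga, Serpina1c and Serpina1d did not pass it.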

How the data were processed

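Epithelium of the jejunum and ileum of 2 wild-type mice was profiled by single-cell RNA sequencing in 4 libraries. Epithelium freed by EDTA was brought to single cells with dispase. The authors made 3′ libraries with a PIPseq V T20 kit and counted them with PIPseeker, and the deposited matrices hold raw UMI counts per gene and called cell. The submitters' processing notes name GRCm39, and no coordinates in that build were used here. Genes seen in at least 3 called cells and cells with 1000 to 6000 genes and under 20% mitochondrial counts were kept, as the study's methods describe. The libraries were integrated by canonical correlation analysis in Seurat 5.3.0 (R 4.3.3) and grouped, at a resolution of 1, into 23 clusters.

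Names came from fixed marker lists. A class other than enterocyte needed 3 markers, each found in at least 10% of its cells and more than 1 log2 unit above the rest, with a marker of its own among its 10 leading genes. An enterocyte-like cluster needed 3 markers in at least 50% of its cells. These thresholds were set with the data known, and a different naming could move values. Scrublet (scanpy 1.11.5, Python 3.11.15) marked at most 2 cells per library, too few for the caller to have worked, so doublets were left in and leaving out the highest 6% of scores was tried.

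Levels are given as CPM, from the counts of a gene in a cell class over all UMIs of that class, with exact Poisson intervals. UMIs of 3′ libraries were not divided by gene length. Shares of cells with a UMI were taken after thinning each cell to 2000 UMIs, leaving out shallower cells, with exact binomial intervals. Such intervals, at 95%, cover counting error only. Counts were summed per library and class and the regions were compared over all genes with edgeR 4.0.16 (quasi-likelihood test, filterByExpr, TMM, Benjamini-Hochberg adjustment), a script tested on simulated data. In the single-cell data the authors tested cells, with cells standing in as replicates. They also compared the regions at postnatal day 6 by bulk RNA sequencing of epithelium with edgeR, with animals as replicates. There the paper names Afp among the top ileal genes and Serpina1a among the top jejunal ones. The 10 genes and the lists beside them were chosen with earlier results of these data known, and the 10 were picked partly for their measured differences between regions, so their values carry no test and adjusted p-values are given only for other genes. Of each list, called genes reaching 20 CPM in either region that moved alike in both mice were named, up to 6 in each direction. For each of the 10 with at least 20 CPM in a region, the 5 most correlated other genes were named over sums per cluster and library. Hepatocyte markers were named where they were at 0 or above 5 CPM.

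Both regions of a replicate number came from the same mouse, per the series design. The differences between the mice in ileum and jejunum correlated at 0.41 over genes for enterocyte-like cells and at 0.28 for the stem/progenitor-like class. Fits with the mouse as a block, with DESeq2 1.42.0, without a low-count filter, with under 10% mitochondrial counts, with thinned sums, with all kept cells, at resolution 0.5 and without each library were the alternatives. Leaving out stem/progenitor-like cells with a secretory marker UMI was added after the data were seen.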

Additional observations from a re-analysis of the deposited data

Results flagged for a closer look

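Serpina1b moved in opposite directions in 2 cell classes of both mice. In stem/progenitor-like cells its level was higher in the ileum by a mean of 1.52 on the log2 scale (1.18 and 1.86 in the 2 mice), and in enterocyte-like cells the difference between ileum and jejunum was -4.33 (-4.27 and -4.39). The difference between the classes was not tested.

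Afp was lower in the ileum than in the jejunum of both mice in enteroendocrine-like cells, where the mean log2 difference between ileum and jejunum was -0.39 (-0.44 and -0.35 in the 2 mice) against 5.77 in enterocyte-like cells (5.29 and 6.25). This difference was not tested either, and it rests on 46 to 74 enteroendocrine-like cells per library. The regions overlapped (432.7 and 662.5 CPM in the ileum against 585.8 and 844.5 CPM in the jejunum), and 5 cells held 59% and 87.8% of the jejunal Afp UMIs.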

How the results depend on the processing

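Of 120 alternative values of the members' fold changes, 71 moved by less than the spread between mice, 49 moved by more and 0 changed sign. That spread is the SD of only 2 log2 ratios, from 0.0125 for Alb to 1.646 for Fga. The split into 71 and 49 therefore depends on unequal limits between genes. Of 33 alternative differences in the share of cells with a UMI, 1 changed sign, that of Alb, at 0.0014 percentage points with thinning to 1000 UMIs and -0.0211 with 2000. Between the ends of the order, the jejunal Serpina1 sum differed by -0.35 on the log2 scale by tip genes and by 1.66 by ribosomal share. Genes called between regions in enterocyte-like cells numbered 1412, and 3072 in the paired fit with the mouse as a block, 3064 with DESeq2 and 325 to 1729 with a library left out (325 without ileum replicate 1, 792 without ileum replicate 2, 612 without jejunum replicate 2). The 28 listed genes called became 41 with the block, 40 with DESeq2 and 8 to 30 with a library left out (8, 18 and 16 without those 3 libraries). In stem/progenitor-like cells 325 genes were called, and 795 without a low-count filter, 1264 with the block, 211 without the highest 6% of doublet scores and 249 to 667 with a library left out (667 without jejunum replicate 1). The causes were not tested. With 1 library left in a region, it is assumed to vary like the other region. The few immune-like, goblet-like and enteroendocrine-like cells limit what can be said of them.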
